A study of Homo sapiens with 12 samples.

Results

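MV4-11 and OCI-AML3, a pair of human acute myeloid leukaemia (AML) cell lines, were compared with each other while both were exposed to the kinase inhibitor AC220. The comparison used the 3 MV4-11 and 3 OCI-AML3 libraries labelled AC220, 6 of the 12 libraries of the series, and every gene that passed a count filter. MV4-11 AC220 and OCI-AML3 AC220 cells had received 5 nM AC220 (quizartinib) for 24 h, and the 3 MV4-11 DMSO and 3 OCI-AML3 DMSO libraries came from cells given the vehicle for the same time. The DMSO libraries served to show which differences between the lines were absent, smaller or reversed without inhibitor. MV4-11 carries an internal tandem duplication of FLT3 (FLT3-ITD) and a KMT2A-AFF1 fusion, whereas OCI-AML3 has an NPM1 mutation without a duplicated FLT3. Each line stems from 1 patient, so that a difference between the lines is a difference between 1 line and 1 other line, not between genotypes.

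FLT3 is a receptor tyrosine kinase of early blood cells, and an internal tandem duplication makes it signal without its ligand. The mutant receptor drives STAT5, which turns on genes such as PIM1 and CISH, and feeds the RAS-ERK and PI3K-AKT pathways, which support growth, amino acid uptake and cell division. AC220 occupies the kinase domain of FLT3 and is used against AML with this duplication.

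Libraries held 11419454 to 13328968 counts in MV4-11 AC220, 10877198 to 14458640 in OCI-AML3 AC220, 15041493 to 16918761 in MV4-11 DMSO and 13013381 to 13455082 in OCI-AML3 DMSO. Values below are CPM, counts relative to the scaled size of the library, and 3 counts corresponded to 0.177 to 0.276 CPM in a library. Principal components 1 and 2 took up 81% and 12.6% of the variance of log2 CPM. Nothing in the labels states that replicates were cultured separately, so that each p-value speaks for the scatter among these libraries, and that scatter may be technical. MV4-11 AC220 replicate 1 stood somewhat apart from the others of its group (chi-square per degree of freedom 9.85 and 11.1, against 4.29 between the others). So did OCI-AML3 AC220 replicate 3 (8.79 and 7.18, against 4.48) and OCI-AML3 DMSO replicate 3 (6.78 and 6.71, against 2.82, the closest pair of the series). All 11 myeloid markers examined passed the filter, with a summed level of 1559.6 to 1731.5 CPM in MV4-11 AC220 and 2636.8 to 3027.5 CPM in OCI-AML3 AC220. Most of the sum in OCI-AML3 came from ITGB2. By member 5 were higher and 5 lower in MV4-11 under AC220 (36.7% and 39.5% of all genes). At least 2-fold were 4 higher and 1 lower (19.7% and 20.2% of all genes). Among 11 B-lymphoid markers 5 passed the filter, and their list summed to 29.7 to 30.4 CPM in MV4-11 AC220 and 3.05 to 3.74 CPM in OCI-AML3 AC220, most of it in MV4-11 from IGLL1, the surrogate light chain of precursor B cells. Of 14 erythroid and megakaryocyte markers 8 had no count in any library, among them HBA1, HBB and GATA1, and the T cell genes CD3E and CD2 and the epithelial genes EPCAM and KRT19 had none either. Other members of the last 2 lists were expressed. Of the 10 T and NK markers only 2 passed the filter and 8 were below it. The list summed to 154 to 190 CPM in MV4-11 AC220 and 50.2 to 55.2 CPM in OCI-AML3 AC220. The 10 epithelial and stromal markers summed to 65.8 to 93.3 and 438 to 620 CPM, most of it in OCI-AML3 AC220 from VIM. The part of these markers in the line differences was not tested. In bulk RNA fewer cells of a type and less RNA per cell cannot be told apart.

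Under AC220 the lines differed in most of what they expressed, and by more than without inhibitor. Line differences are given as log2(MV4-11/OCI-AML3) ± SE, so that a positive value is a higher level in MV4-11, and adjusted p-values are those of edgeR's quasi-likelihood test over all genes tested. Of 12392 genes tested, 4546 were higher in MV4-11 (36.7%) and 4891 lower (39.5%), 9437 in all (76.2%), at an adjusted p below 0.05. A difference of at least 2-fold was called for 2440 genes higher (19.7%) and 2506 lower (20.2%). The 3 libraries of one line did not overlap the 3 of the other for 9362 genes (75.5%). Under DMSO 3981 genes were higher in MV4-11 (32.1%) and 4139 lower (33.4%), 8120 in all (65.5%), and 3374 genes (27.2%) differed at least 2-fold, 1683 higher and 1691 lower (13.6% each). The median absolute log2 difference was 0.757 under AC220 and 0.489 under DMSO, while the median signed difference lay near 0 in both (-0.03 and 0.01).

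**Figure D1:**
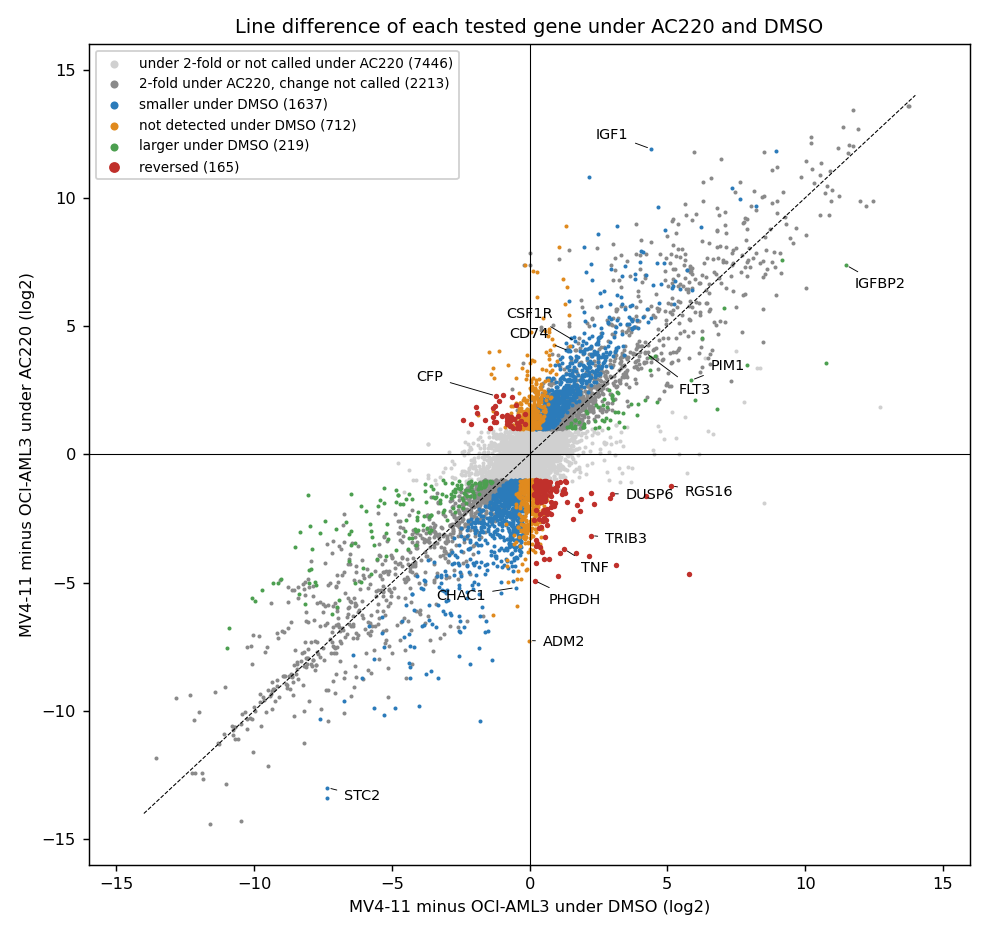
Each point is 1 of 12392 genes, with its log2 difference between MV4-11 and OCI-AML3 under DMSO on the x axis and under AC220 on the y axis, coloured by how the DMSO difference compares with the AC220 difference. Genes on the diagonal differed alike in both conditions, and labelled genes such as PHGDH, ADM2 and TNF lie far below it.

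The difference between the AC220 and the DMSO line difference was itself tested for every gene. It was called for 5792 genes (46.7%), in 2849 toward MV4-11 (23%) and in 2943 toward OCI-AML3 (23.7%), and it amounted to at least 2-fold in 2287 (18.5%). The response to AC220 within each line shares its libraries with these comparisons, and it was called for 7228 genes in MV4-11 (58.3%) and 489 in OCI-AML3 (3.95%). In OCI-AML3 the AC220 libraries thus differed from the DMSO libraries in few genes.

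The 4946 genes that differed at least 2-fold under AC220 (39.9% of those tested) were then divided by what the DMSO libraries showed. For 2213 (44.7%) no change of the difference was called. A further 1637 (33.1%) differed the same way but by less under DMSO, with a median absolute log2 difference of 1.96 under AC220 and 0.84 under DMSO. In 712 (14.4%) no difference was detected under DMSO and the change was called, and for 386 of these the 95% interval of the DMSO difference lay within 1.5-fold either way. The difference was called in the opposite direction under DMSO in 165 (3.34%), of which 123 were lower in MV4-11 under AC220 and higher under DMSO. Finally 219 (4.43%) differed the same way and by more under DMSO. Conversely, 304 genes that differed at least 2-fold under DMSO were not called under AC220, and for 191 of them the change was called.

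**Figure D2:**
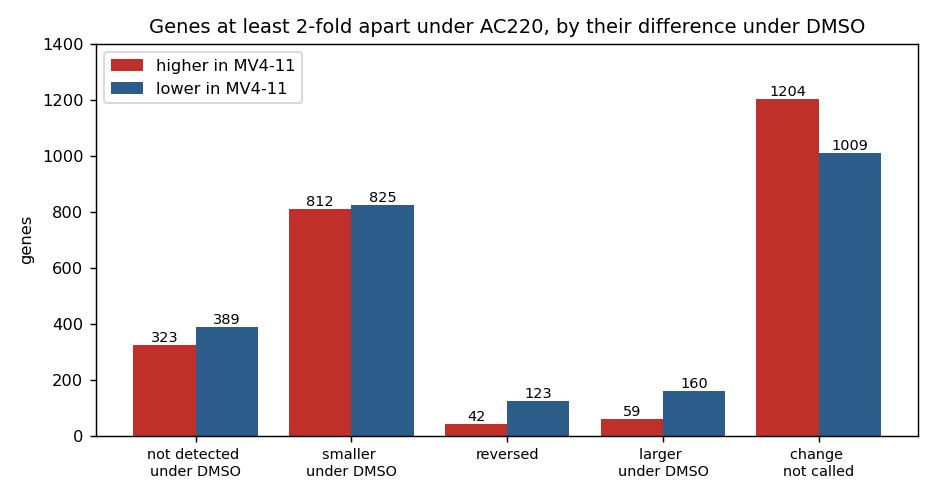
Bars give the number of genes at least 2-fold apart under AC220 in each class of DMSO difference, separately for genes higher and lower in MV4-11. The reversed and the larger-under-DMSO classes hold more genes lower in MV4-11 (123 and 160) than higher (42 and 59).

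Differences that stood in both conditions included the receptor itself. FLT3 measured 516, 306 and 269 CPM in MV4-11 AC220 replicates 1 to 3 and 18.7, 23.5 and 27.1 CPM in OCI-AML3 AC220. No library of one line overlapped the other, although replicate 1 of MV4-11 was high in its group. The line difference was 3.97 ± 0.27 under AC220 (adjusted p 1.06e-06) and 4.20 ± 0.30 under DMSO, and the change was not called at -0.23 ± 0.40 (adjusted p 0.683). Without MV4-11 AC220 replicate 1 the change was -0.57 with an adjusted p of 0.019.

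The genes with the largest differences under AC220 were mostly expressed in 1 line only, in both conditions. SNRPN, an imprinted gene of the small nuclear ribonucleoproteins, measured 106, 119 and 118 CPM in MV4-11 AC220 and had no count in any OCI-AML3 library. It was at least 1492-fold higher under AC220 and at least 1697-fold higher under DMSO, taking 3 counts over the group as the floor. SNURF has nearly the same counts because it shares its transcript with SNRPN, and APOC2 and APOC4, neighbouring apolipoprotein genes whose transcripts run together, likewise cannot be separated. PRSS57, a serine protease of neutrophil granules, measured 319, 387 and 379 CPM in MV4-11 AC220, against a mean of 0.0772 CPM in OCI-AML3 AC220. In the other direction PID1, an adaptor that dampens insulin signalling, had no count in MV4-11 AC220 and 216, 209 and 183 CPM in OCI-AML3 AC220, a level at least 2347-fold lower in MV4-11. CKAP4, a membrane protein of the endoplasmic reticulum, had a ratio of 14324 under AC220 (95% counting interval 2570.5 to 565800) in favour of OCI-AML3. Its mean in MV4-11 was 0.0303 CPM under AC220 and 2.42 CPM under DMSO, so that the line difference was wider with inhibitor (change -6.04, adjusted p 2.06e-11). Other genes without a count in the MV4-11 AC220 libraries were G0S2, GTSF1, MKX, SLAIN1, CA2, C12orf75 and CTDSPL, for which the change with AC220 was not called. With limma on the authors' deposited normalised values the change was called for G0S2 (-2.10, adjusted p 0.0059) and CTDSPL (-1.44, adjusted p 0.047).

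MHC class II molecules, which present peptides to T cells, were expressed in MV4-11 and nearly absent from OCI-AML3. All 10 members tested were higher in MV4-11 under AC220, 9 of them at least 2-fold, where 36.7% of all genes were higher. Under DMSO 9 of 10 were higher, where 32.1% of all genes were. HLA-DRA measured 368, 406 and 379.8 CPM in MV4-11 AC220 and 0, 0.139 and 0.288 CPM in OCI-AML3 AC220. The corresponding DMSO means were 29.9 and 0.0518 CPM. HLA-DRB1 had 1 count in all OCI-AML3 AC220 libraries together, which gave a ratio of 8957 (1607 to 353810, 95% counting interval), and HLA-DPA1 was at least 426-fold higher. HLA-DRB1 belongs to a family of near-identical genes among which reads may be divided. CD74, the invariant chain that chaperones these molecules, was expressed in both lines, at 650.3, 759 and 779 CPM in MV4-11 AC220 and 45.8, 46.8 and 42.2 CPM in OCI-AML3 AC220. Its difference of 4.02 ± 0.08 was larger than that of 1.45 ± 0.08 under DMSO (change 2.57 ± 0.11, adjusted p 7.84e-18). The list's median difference was 9.53 under AC220 and 5.19 under DMSO from fitted values, and 7.54 and 3.50 with genes without a count in one line at their bound. The change was called upward in 3 of the 10 members. With the authors' deposited normalised values 8 members could be tested and all 8 had a called change upward.

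Interferon-stimulated genes lay the other way. Of 23 tested, 20 were lower in MV4-11 under AC220, 18 of them at least 2-fold (39.5% of all genes were lower), and 17 were lower under DMSO (33.4%). The median difference was -2.31 under AC220 and -1.71 under DMSO. OAS3, a sensor of double-stranded RNA, measured 0, 0 and 0.182 CPM in MV4-11 AC220 and 75.1, 76.8 and 99.4 CPM in OCI-AML3 AC220, a ratio of 1471 (407 to 12153, 95% counting interval) in favour of OCI-AML3. MX1, an antiviral GTPase, differed by -5.94 ± 0.26 under AC220 and -6.98 ± 0.26 under DMSO. IFITM3, which blocks viral entry, differed by -2.94 ± 0.09 and -4.06 ± 0.10 and so was closer between the lines with inhibitor (change 1.12 ± 0.13, adjusted p 4.71e-08). The exceptions were IFITM1, at 314, 373 and 366 CPM in MV4-11 AC220 and 11.9, 11.7 and 11.8 CPM in OCI-AML3 AC220, and STAT2, a transcription factor of the interferon response. STAT2 measured 70.3, 79.8 and 80.7 CPM in MV4-11 AC220, 23.5, 25.7 and 24.7 in OCI-AML3 AC220, 30.9, 32.0 and 32.7 in MV4-11 DMSO and 24.5, 32.4 and 26.9 in OCI-AML3 DMSO. Its difference of 1.64 ± 0.10 under AC220 stood against 0.19 ± 0.10 under DMSO (adjusted p 0.0963), and the change was called at 1.45 ± 0.14 (adjusted p 7.13e-10). The change of OAS3 was no longer called without MV4-11 AC220 replicate 1 (-2.09, adjusted p 0.076) or replicate 2 (-2.23, adjusted p 0.053). That of MX1 was lost without MV4-11 AC220 replicate 2 (adjusted p 0.054) or 3 (adjusted p 0.13) and without MV4-11 DMSO replicate 2 (adjusted p 0.064). It was lost with limma-voom too (1.03, adjusted p 0.091).

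HOX genes, which keep leukaemic progenitors immature, differed in either direction between the lines. HOXA9 was level, at a mean of 73.0 ± 2.64 CPM in MV4-11 AC220 and 72.7 ± 1.04 CPM in OCI-AML3 AC220 (SD, n = 3), with a difference of 0.01 ± 0.07 and a 95% interval of -0.15 to 0.16. HOXA13 was almost confined to OCI-AML3, at 0.836, 0.838 and 1.18 CPM in MV4-11 AC220 and 69.5, 71.4 and 75.2 CPM in OCI-AML3 AC220. HOXB4 and HOXB3 were higher in MV4-11 by 5.95 ± 0.52 and 5.29 ± 0.56. The cofactors MEIS1 and PBX3 were higher in MV4-11 as well, by 1.26 ± 0.09 and 2.17 ± 0.08. Over the 9 tested members of the HOXA, MEIS1 and PBX3 list 4 were higher and 3 lower under AC220, against 4 and 4 under DMSO, and 2 changes were called, both upward. These counts lie near the shares of all genes (36.7% higher and 39.5% lower under AC220, 23% changed upward) and set the list apart in no direction.

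The leukocyte integrins, adhesion receptors that pair an alpha with a beta chain, showed opposite differences within 1 heterodimer. ITGAL, the alpha chain of LFA-1, measured 893, 1069.7 and 1018 CPM in MV4-11 AC220 and 16.1, 17.5 and 17.8 CPM in OCI-AML3 AC220. ITGB2, its beta chain, measured 106, 103 and 95.4 CPM in MV4-11 AC220 and 2091, 2169 and 1767 CPM in OCI-AML3 AC220. The line differences were 5.85 ± 0.08 for ITGAL and -4.30 ± 0.07 for ITGB2 under AC220, and 5.24 ± 0.08 and -2.01 ± 0.07 under DMSO. Both were wider with inhibitor, ITGB2 by -2.30 ± 0.10 (adjusted p 3.16e-17). Of 15 integrin and adhesion genes 9 were higher and 3 lower under AC220 (36.7% and 39.5% of all genes), the other lower ones being CD44, the hyaluronan receptor (-1.54 ± 0.06), and ITGB1 (-0.98 ± 0.07). Under DMSO 9 were higher and 5 lower (32.1% and 33.4% of all genes). SELPLG, the ligand of P-selectin, was higher by 3.13 ± 0.09 under AC220 and 1.41 ± 0.09 under DMSO.

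Serine synthesis genes lay close together in the lines under DMSO and far apart under AC220. PHGDH, PSAT1 and PSPH make serine from a glycolytic intermediate in 3 steps. PHGDH measured 8.51, 7.91 and 9.08 CPM in MV4-11 AC220 and 257, 278 and 240.0 CPM in OCI-AML3 AC220, whereas the DMSO libraries held 328, 326 and 314 CPM in MV4-11 and 294, 303 and 253 CPM in OCI-AML3. The MV4-11 AC220 libraries alone were low, and under DMSO the lines lay close without overlapping, MV4-11 being the higher. The line difference was -4.92 ± 0.10 under AC220, a 30.4-fold lower level (adjusted p 4.53e-27), and 0.19 ± 0.07 under DMSO (adjusted p 0.0184). By the sign of a small DMSO difference PHGDH thus counted among the reversed genes.

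PSAT1 measured 32.9, 31.0 and 27.4 CPM in MV4-11 AC220 and 528, 586 and 588 CPM in OCI-AML3 AC220, with a line difference of -4.22 ± 0.07 (adjusted p 1.64e-27) against 0.24 ± 0.06 under DMSO. PSPH measured 15.6, 14.2 and 13.9 CPM in MV4-11 AC220 and 56.0, 55.0 and 48.5 CPM in OCI-AML3 AC220, with -1.86 ± 0.09 against 0.12 ± 0.08, the latter not called (adjusted p 0.209). SHMT2 and MTHFD2, which pass the serine carbon to folate in mitochondria, were lower, at -1.22 ± 0.07 and -2.17 ± 0.07, and ALDH1L2, which oxidises formyl-folate there, at -4.49 ± 0.18. Under DMSO these 3 differed by -0.05 ± 0.07, 0.22 ± 0.07 and -0.12 ± 0.09. Of 14 serine and one-carbon enzymes tested 10 were lower and 3 higher in MV4-11 under AC220, and under DMSO 3 were lower and 7 higher. Over all genes 39.5% were lower and 36.7% higher under AC220, and 33.4% and 32.1% under DMSO. The change was called downward in 11, where 23.7% of all genes had a downward change. The enzymes higher under AC220 included AMT of the glycine cleavage system (2.13 ± 0.27) and MTHFD2L (0.37 ± 0.15), the last no longer called without MV4-11 AC220 replicate 1 or 3 or OCI-AML3 AC220 replicate 2 (adjusted p 0.0978 to 0.205). MTHFD2L was not called with total counts either (adjusted p 0.101).

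ATF4 is the transcription factor that cells use when amino acids run short, and its targets supply and import amino acids. ATF4 itself measured 232, 270.4 and 313 CPM in MV4-11 AC220 and 1037, 1059 and 978 CPM in OCI-AML3 AC220, a difference of -1.92 ± 0.08 against -0.35 ± 0.08 under DMSO (change adjusted p 4.12e-12). All 21 listed ATF4 and amino acid stress genes had a called downward change, against 23.7% of all genes. Under AC220 18 were lower, 17 at least 2-fold (39.5% and 20.2% of all genes), with a median of -3.30. Under DMSO 8 were lower and 10 higher (33.4% and 32.1% of all genes), with a median of 0.13. The median over all genes tested was -0.03 and 0.01.

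ASNS, which makes asparagine, measured 20.2, 17.0 and 21.3 CPM in MV4-11 AC220 and 404, 435 and 428 CPM in OCI-AML3 AC220, a 21.6-fold lower level. CHAC1, which degrades glutathione, measured 2.66, 4.1 and 3.18 CPM in MV4-11 AC220 and 134, 128 and 98.3 CPM in OCI-AML3 AC220, with a difference of -5.19 ± 0.19 against -0.50 ± 0.11 under DMSO. ADM2, which encodes the hormone intermedin, was near the floor in MV4-11 AC220, at 0.152, 0.0931 and 0.272 CPM, while the other groups measured 27.7, 26.9 and 28.5 (OCI-AML3 AC220), 30.2, 30.2 and 27.8 (MV4-11 DMSO) and 32.2, 30.0 and 27.7 CPM (OCI-AML3 DMSO). Among named genes whose DMSO interval lay within 1.5-fold it had the largest AC220 difference, at -7.26 ± 0.51 against -0.03 ± 0.10. TRIB3, a pseudokinase that restrains ATF4 and AKT, was reversed. It measured 4.1, 2.89 and 4.18 CPM in MV4-11 AC220 and 32.9, 36.8 and 31.1 CPM in OCI-AML3 AC220, but 186, 172 and 171 CPM in MV4-11 DMSO and 35.2, 41.3 and 36.1 CPM in OCI-AML3 DMSO. Its difference thus went from 2.23 ± 0.09 under DMSO to -3.16 ± 0.14 under AC220. The 3 list members higher in MV4-11 under AC220 were ATF5, a relative of ATF4 (2.04 ± 0.10, and 4.63 ± 0.09 under DMSO), PPP1R15A, which ends the block of translation (0.84 ± 0.10), and VLDLR (0.58 ± 0.13).

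Carriers that bring amino acids into the cell were mostly lower in MV4-11 under AC220 as well. SLC7A5, the transporter of large neutral amino acids, measured 24.0, 23.6 and 26.8 CPM in MV4-11 AC220 and 279.8, 296 and 309 CPM in OCI-AML3 AC220, with a difference of -3.57 ± 0.07 against 0.22 ± 0.06 under DMSO. Its heavy chain SLC3A2 differed by -2.55 ± 0.07 against 0.15 ± 0.06, and the cystine carrier SLC7A11 by -3.61 ± 0.14 against -0.34 ± 0.10. Of 13 transporters tested 9 were lower and 2 higher under AC220, and 5 lower and 6 higher under DMSO. The shares over all genes were 39.5% lower and 36.7% higher under AC220 and 33.4% and 32.1% under DMSO, so that the transporters stood above them in lower genes under AC220 and less so under DMSO. Those higher were SLC7A7 (0.92 ± 0.22) and the lysosomal SLC36A1 (0.55 ± 0.11). Of 20 cytosolic aminoacyl-tRNA synthetases, which load amino acids onto tRNA, 17 were lower under AC220, where 39.5% of all genes were, and 6 under DMSO, a share near the 33.4% of all genes. GARS, the glycyl-tRNA synthetase, had the smallest p-value of the list, at 51.7, 50.3 and 50.9 CPM in MV4-11 AC220 and 284, 287 and 297 CPM in OCI-AML3 AC220. QARS was the synthetase that was higher in MV4-11 (0.79 ± 0.07).

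Promoters of these genes are shown because ATF4 binds a short composite element with C/EBP proteins, written TGATGNAAN. It was searched on both strands from 250 bases before to 50 bases after each RefSeq start (GRCh38.p14). It stood in 4.45% of 27305 promoters in that table and in 2.8% of those of 10135 genes tested, in 5 of 19 ATF4 list genes with a promoter sequence (26.3%), and in 5 of 12 amino acid transporters (41.7%). A match is a string of letters and no evidence of binding. In the stretches of 29 bases below, written 5′ to 3′ on the gene's strand, capitals mark the match, which begins 210 bases before the start for CHAC1, 68 for ASNS, 16 for JDP2, 4 for SLC38A1 and 8 for SLC1A4.
CHAC1 (chr15:40953251-40953279, plus strand): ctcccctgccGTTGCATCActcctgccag
ASNS (chr7:97872458-97872486, minus strand): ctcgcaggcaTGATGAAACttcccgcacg
JDP2 (chr14:75427996-75428024, plus strand): tagccggggcTGATGCAACccgtcccgcc
SLC38A1 (chr12:46266502-46266530, minus strand): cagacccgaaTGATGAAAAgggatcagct
SLC1A4 (chr2:64989381-64989409, plus strand): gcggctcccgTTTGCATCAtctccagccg
The line differences of these genes under AC220 were -5.19 ± 0.19 for CHAC1, -4.43 ± 0.08 for ASNS, -3.30 ± 0.11 for JDP2, -3.06 ± 0.16 for SLC38A1 and -2.64 ± 0.09 for SLC1A4.

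**Figure D3:**
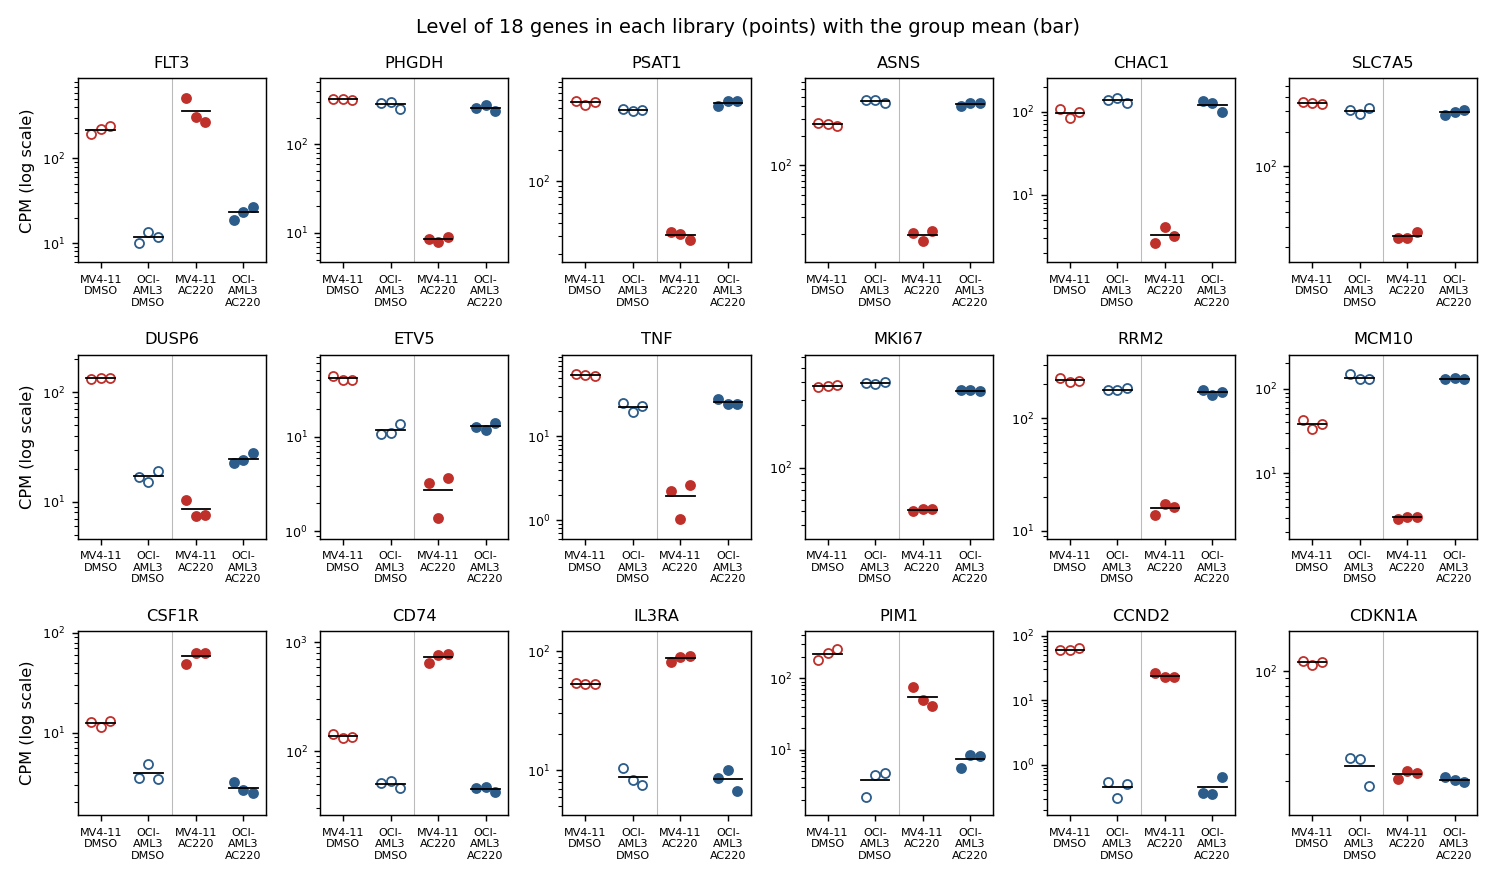
Points are CPM of single libraries on a log axis for 18 named genes, with the 4 groups side by side and the group mean as a bar. For PHGDH, ASNS and MKI67 the MV4-11 AC220 libraries alone are low, whereas FLT3 and CCND2 separate the lines in both conditions.

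Genes of DNA replication and mitosis were lower in MV4-11 under AC220 throughout. All 25 replication genes tested were lower in MV4-11 under AC220, 23 at least 2-fold, and so were all 22 mitosis genes, each at least 2-fold (39.5% of all genes were lower, 20.2% at least 2-fold). Under DMSO 14 replication genes were lower and 4 higher, and 9 mitosis genes were lower and 3 higher. Of all genes 33.4% were lower and 32.1% higher under DMSO, so that replication genes stood above the share of lower genes without inhibitor too. The medians were -2.77 and -2.70 under AC220, and -0.22 and -0.10 under DMSO. The change was called downward in every tested gene of both lists, against 23.7% of all genes.

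MCM4, a subunit of the replicative helicase, measured 52.6, 58.0 and 54.1 CPM in MV4-11 AC220, 351, 359.9 and 373 in OCI-AML3 AC220, 335, 319.9 and 343 in MV4-11 DMSO and 367, 326 and 342 in OCI-AML3 DMSO. Its difference was -2.72 ± 0.07 (adjusted p 3.49e-24) and, under DMSO, -0.05 ± 0.06 (adjusted p 0.457). The proliferation marker MKI67 measured 49.8, 51.3 and 51.9 CPM in MV4-11 AC220 and 348, 348 and 343 CPM in OCI-AML3 AC220, and differed by -2.76 ± 0.06 against -0.07 ± 0.06. For both genes the MV4-11 AC220 libraries were low and the other 3 groups were close together. MCM10, which loads the polymerase, already differed by -1.83 ± 0.08 under DMSO and by -5.44 ± 0.14 under AC220. CENPE, a kinetochore motor, differed by -0.92 ± 0.08 and -3.73 ± 0.09. RRM2, the subunit of ribonucleotide reductase that is made in S phase, was reversed, at 13.7, 17.4 and 16.2 CPM in MV4-11 AC220 and 179, 161 and 173 CPM in OCI-AML3 AC220 (-3.44 ± 0.08) against 0.28 ± 0.07 under DMSO. DNMT1, which copies DNA methylation after replication, was reversed too (-1.15 ± 0.06 against 0.32 ± 0.06).

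Promoters of replication genes are shown because E2F factors bind the letters TTTGGCGC or TTTCCCGC. One of these strings stood, on either strand, in 2.75% of all promoters, in 4.6% of those of genes tested, in 13 of 22 replication genes with a promoter sequence (59.1%) and in 2 of 18 mitosis genes (11.1%). The matches begin 31 bases before the start for GINS2, 39 for TYMS and 187 for MCM7, and at base 8 of CDC6 and base 6 of GINS1. Capitals mark the match in each stretch of 28 bases, RefSeq GRCh38.p14, on the gene's strand.
CDC6 (chr17:40287876-40287903, plus strand): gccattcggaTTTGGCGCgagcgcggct
GINS2 (chr16:85688968-85688995, minus strand): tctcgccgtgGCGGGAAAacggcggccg
TYMS (chr18:657604-657631, plus strand): cgggacggccGCGGGAAAaggcgcgcgg
MCM7 (chr7:100101567-100101594, minus strand): agctcggaccGCGGGAAAcccggcgcct
GINS1 (chr20:25407668-25407695, plus strand): gctttgttcgGCGCCAAAgcgcggagcg
Under AC220 their line differences were -4.33 ± 0.16 for CDC6, -3.60 ± 0.13 for GINS2, -3.56 ± 0.12 for TYMS, -3.16 ± 0.09 for MCM7 and -2.91 ± 0.17 for GINS1.

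Regulators of entry into S phase differed in either direction between the lines, but their line difference mostly changed downward. Of 15 D-type cyclins, CDKs and CDK inhibitors tested the change was called downward in 10 and upward in 2 (23.7% and 23% of all genes). At least 2-fold were 3 higher and 7 lower under AC220 (19.7% and 20.2% of all genes). At any size 5 were higher and 8 lower under AC220, and 6 and 5 under DMSO. Of all genes 36.7% were higher and 39.5% lower under AC220, and 32.1% and 33.4% under DMSO. CCND2, a D-type cyclin, was nearly confined to MV4-11, at 26.7, 22.5 and 22.9 CPM under AC220 against 0.361, 0.347 and 0.647 CPM in OCI-AML3. CCND1, another such cyclin, was nearly confined to OCI-AML3, at 27.4, 31.9 and 27.9 CPM under AC220 against 0.304, 0.372 and 0.363 CPM in MV4-11. The differences were 5.69 ± 0.32 and -6.37 ± 0.39 under AC220 and 7.04 ± 0.32 and -6.95 ± 0.39 under DMSO. CDKN2C, an inhibitor of CDK4 and CDK6, was lower in MV4-11 by -2.85 ± 0.08 and -2.23 ± 0.07. CDKN1A, the inhibitor p21, differed under DMSO only. It measured 20.8, 23.2 and 22.7 CPM in MV4-11 AC220 and 21.3, 20.3 and 19.8 CPM in OCI-AML3 AC220, with a difference of 0.12 ± 0.12 (adjusted p 0.352), and 116, 109.8 and 114 CPM in MV4-11 DMSO and 28.1, 27.7 and 18.7 CPM in OCI-AML3 DMSO, with a difference of 2.19 ± 0.10 (adjusted p 4.96e-17). The change was called at -2.07 ± 0.16 (adjusted p 5.57e-12).

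Genes that ERK signalling induces were mostly higher in MV4-11 under DMSO and mostly lower under AC220. DUSP6, an ERK phosphatase that ERK itself induces, measured 10.4, 7.45 and 7.63 CPM in MV4-11 AC220 and 22.4, 23.9 and 28.0 CPM in OCI-AML3 AC220. Under DMSO it measured 133, 135 and 136 CPM in MV4-11 and 16.7, 15.0 and 19.3 CPM in OCI-AML3. MV4-11 was thus the higher line without inhibitor and the lower line with it, with no overlap in either condition, at 2.98 ± 0.10 and -1.53 ± 0.13 (change -4.51 ± 0.17, adjusted p 3.21e-19). ETV5, an ETS factor downstream of ERK, went from 1.83 ± 0.14 under DMSO to -2.21 ± 0.21 under AC220, and DUSP5 (0.72 ± 0.24 to -4.08 ± 0.55) and PHLDA1 (0.61 ± 0.18 to -1.05 ± 0.21) were reversed in the same sense. EGR1, an immediate early transcription factor, measured 2.05, 2.79 and 2.36 CPM in MV4-11 AC220 and 39.0, 62.5 and 37.1 CPM in OCI-AML3 AC220 (-4.28 ± 0.28), while the DMSO difference of -0.27 ± 0.16 was not called (adjusted p 0.147). SPRY2, a feedback inhibitor of the pathway, differed by -6.18 ± 0.41 and -2.88 ± 0.16. SPRED1, another such inhibitor, was nearly absent from MV4-11 in both conditions (means of 0.278 and 0.0856 CPM, against 26.9 and 25.4 CPM in OCI-AML3). Of 20 genes tested 15 were lower in MV4-11 under AC220 and 1 higher, FOSB, which reached only 0.456, 1.02 and 1.45 CPM (39.5% of all genes were lower and 36.7% higher). Under DMSO 6 were lower and 12 higher (33.4% and 32.1% of all genes), and the median difference was -1.87 against 0.63.

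MYC, a transcription factor of growth genes, was called in opposite directions, but with libraries that scattered widely. It measured 35.9, 16.6 and 15.7 CPM in MV4-11 AC220, 33.8, 51.1 and 61.0 in OCI-AML3 AC220, 37.8, 39.7 and 52.3 in MV4-11 DMSO and 16.2, 17.1 and 27.3 in OCI-AML3 DMSO. MV4-11 AC220 replicate 1 lay above 1 of the OCI-AML3 AC220 libraries, so that the lines overlapped. The difference of -1.09 ± 0.37 under AC220 had an adjusted p of 0.0257, and the call was lost without MV4-11 AC220 replicate 2 or 3 or without OCI-AML3 AC220 replicate 2 or 3 (adjusted p 0.0599 to 0.0947), and with the 6 AC220 libraries fitted alone (0.0921). Of 23 genes of MYC and of the nucleolus, where ribosomes are built, 22 were lower under AC220, 9 of them at least 2-fold, and 12 were lower under DMSO. Of all genes 39.5% were lower under AC220, 20.2% at least 2-fold, and 33.4% under DMSO. Among them NOP58, a core protein of small nucleolar particles, differed by -1.36 ± 0.06 against -0.35 ± 0.06, and FBL, the methyltransferase fibrillarin, was the exception at 0.57 ± 0.07.

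Several secreted factors and signalling brakes were reversed as well. TNF, an inflammatory cytokine, measured 2.2, 1.02 and 2.63 CPM in MV4-11 AC220, 28.1, 24.5 and 24.2 in OCI-AML3 AC220, 55.4, 54.0 and 52.2 in MV4-11 DMSO and 24.9, 19.8 and 23.2 in OCI-AML3 DMSO, so that its difference went from 1.25 ± 0.11 to -3.69 ± 0.21. RGS16, which switches off G proteins, measured 3.19, 2.61 and 1.63 CPM in MV4-11 AC220 and 4.6, 6.11 and 6.76 CPM in OCI-AML3 AC220, but 124, 148 and 138 CPM in MV4-11 DMSO against 4.74, 4.1 and 2.89 in OCI-AML3 DMSO. This was the largest change among the reversed genes that met the naming rule, from 5.13 ± 0.16 to -1.22 ± 0.22. GDF15, a stress-induced cytokine, changed from 1.70 ± 0.28 to -3.86 ± 0.81 at low levels (means of 0.123 and 1.77 CPM under AC220). VEGFA, the vascular growth factor, went from 1.24 ± 0.12 to -1.34 ± 0.14, and the chemokine CCL2 and the macrophage factor CSF1 were reversed likewise at low levels (means of 0.208 and 0.509 CPM in MV4-11 AC220 and 3.8 and 5.76 CPM in MV4-11 DMSO). IL1B and CXCL8 were lower in MV4-11 in both conditions and further apart under AC220, IL1B with a ratio of 286 (97.5 to 1388, 95% counting interval). CXCL1 had no count in any MV4-11 library and was at least 235-fold lower under AC220. Of 10 cytokines tested 7 were lower and 3 higher under AC220, against 3 lower and 7 higher under DMSO. Of all genes 39.5% were lower and 36.7% higher under AC220, and 33.4% and 32.1% under DMSO, so that the 3 higher under AC220 and the 3 lower under DMSO are near those shares.

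Reversals toward a higher level in MV4-11 were fewer, 42 of the 165. CFP, the complement regulator properdin, measured 53.3, 57.1 and 58.8 CPM in MV4-11 AC220 and 12.2, 12.6 and 10.1 CPM in OCI-AML3 AC220. Under DMSO it measured 6.67, 5.13 and 6.24 CPM in MV4-11 and 14.3, 16.5 and 11.2 CPM in OCI-AML3, so that MV4-11 passed from the lower to the higher line (-1.21 ± 0.15 to 2.27 ± 0.13). SCUBE1 went from -0.98 ± 0.19 to 2.30 ± 0.16, and ICAM3, an adhesion ligand of leukocytes, from -1.11 ± 0.24 to 2.10 ± 0.21. ZNF467 changed most of these, from -2.41 ± 0.67 to 1.34 ± 0.41, at means of only 2.72 and 1.06 CPM under AC220. Its AC220 difference was no longer called without MV4-11 AC220 replicate 3 (0.92, adjusted p 0.066). SOX4, a transcription factor of progenitors, was reversed at higher counts, with 436, 454 and 488 CPM in MV4-11 AC220, 232, 224 and 216 in OCI-AML3 AC220, 183, 187 and 186 in MV4-11 DMSO and 249, 239.6 and 232 in OCI-AML3 DMSO. PSAP, the precursor of lysosomal saposins, went from -0.43 ± 0.08 to 1.51 ± 0.08.

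Genes of monocytes and macrophages differed in either direction. Of 11 tested 6 were higher and 5 lower in MV4-11 under AC220 (36.7% and 39.5% of all genes), and the change was called upward in 5 and downward in 3 (23% and 23.7%). Under DMSO 4 were higher and 6 lower (32.1% and 33.4% of all genes). The median difference was 0.84 under AC220 and -0.82 under DMSO. The list summed to 353 to 389 CPM in MV4-11 AC220 and 120 to 130 CPM in MV4-11 DMSO. In OCI-AML3 it summed to 292 to 314 CPM under AC220 and 257 to 277 CPM under DMSO. CSF1R, the receptor of macrophage colony-stimulating factor, measured 48.4, 62.9 and 62.8 CPM in MV4-11 AC220 and 3.16, 2.64 and 2.44 CPM in OCI-AML3 AC220, a 21.2-fold difference. Under DMSO MV4-11 held 12.6, 11.4 and 13.1 CPM and OCI-AML3 3.5, 4.86 and 3.4 CPM, and the change was 2.75 ± 0.24 (adjusted p 1.19e-10). TYROBP, an adaptor of activating myeloid receptors, measured 667, 819 and 896 CPM in MV4-11 AC220 and 18.1, 14.4 and 14.4 CPM in OCI-AML3 AC220 (5.67 ± 0.10 against 3.48 ± 0.10). IGF1, a growth factor that macrophages secrete, measured 139, 107 and 153 CPM in MV4-11 AC220 and had 1 count in the OCI-AML3 AC220 libraries together. Its ratio was 5269 (945 to 208170) under AC220 and 23.6 (7.82 to 117) under DMSO, with 95% counting intervals. The change of IGF1 was called (adjusted p 0.0011) but not without OCI-AML3 DMSO replicate 2 (6.65, adjusted p 0.057).

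Other genes of these cells were lower in MV4-11. VCAN, a matrix proteoglycan of monocytes, was nearly confined to OCI-AML3, at 49.8, 52.1 and 50.8 CPM under AC220 against 0.38, 0 and 0.272 CPM in MV4-11. CD14, the co-receptor for endotoxin, was lower in MV4-11 at 0, 0.0931 and 0 CPM, against 1.35, 0.903 and 1.37 CPM in OCI-AML3. Of 9 chemoattractant receptors 8 were higher under AC220, where 36.7% of all genes were, and 1 lower, CCR1 (-1.86 ± 0.07). Under DMSO 6 were higher and 2 lower (32.1% and 33.4% of all genes). CCR2, the receptor that recruits monocytes, was higher by 3.44 ± 0.10 against 2.61 ± 0.10, and CX3CR1 by 1.73 ± 0.19 against 0.79 ± 0.20. Among surface antigens of AML 8 of 11 were higher under AC220 (36.7% of all genes) and 3 lower (39.5%). Under DMSO the counts were 8 and 3 as well (32.1% and 33.4% of all genes). LILRB4, an inhibitory receptor of monocytic cells, was higher by 1.89 ± 0.07 against 0.74 ± 0.07. CD33 was higher by 1.02 ± 0.10 against 0.55 ± 0.10, and IL1RAP by 3.77 ± 0.15 against 4.27 ± 0.16. The alpha chain of the interleukin-3 receptor, IL3RA, was higher by 3.37 ± 0.12 against 2.61 ± 0.12. CYBB, the catalytic subunit of the phagocyte NADPH oxidase, was lower, at -6.33 ± 0.22 against -5.35 ± 0.16.

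Among genes with no difference called under DMSO, a 95% interval there within 1.5-fold and a called change, and higher in MV4-11 under AC220, those with the largest difference were FYB1, ABCA7, METTL7A, ADA2 and PLXND1. FYB1, an adaptor of integrin signalling in leukocytes, measured 123, 114 and 124 CPM in MV4-11 AC220, 16.6, 17.7 and 16.2 in OCI-AML3 AC220, 17.1, 15.7 and 18.2 in MV4-11 DMSO and 16.4, 20.0 and 13.4 in OCI-AML3 DMSO. Only the MV4-11 AC220 libraries were high, and the difference of 2.84 ± 0.11 under AC220 stood against 0.03 ± 0.11 under DMSO. The lipid transporter ABCA7 differed by 2.67 ± 0.18, METTL7A by 2.23 ± 0.10, the adenosine deaminase ADA2 by 2.21 ± 0.16 and the semaphorin receptor PLXND1 by 2.10 ± 0.10. Those lower in MV4-11 with the largest difference by the same criteria, beside ADM2 and ALDH1L2, were ITGB5 (-4.48 ± 0.38), the mitotic protein CKAP2L (-3.80 ± 0.13) and RHEBL1, a relative of the mTORC1 activator RHEB (-3.71 ± 0.33).

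Lysosomal genes were higher in MV4-11 under AC220, 17 of 22 with 3 lower, and 9 higher with 7 lower under DMSO. Of all genes 36.7% were higher and 39.5% lower under AC220 and 32.1% and 33.4% under DMSO, so that the lysosomal counts under DMSO were near those shares. TFEB, a transcription factor that drives lysosome formation, measured 19.1, 23.0 and 25.5 CPM in MV4-11 AC220 and 2.89, 3.12 and 2.52 CPM in OCI-AML3 AC220 (2.98 ± 0.20 against 0.85 ± 0.19 under DMSO). The proteases CTSZ and CTSB were higher by 1.63 ± 0.10 and 1.29 ± 0.07, of which CTSZ was not called under DMSO (0.10 ± 0.10) and CTSB was (1.14 ± 0.07). The lower genes included CTSL, which had no count in MV4-11 AC220 and 4.42, 6.04 and 9.06 CPM in OCI-AML3 AC220, and ATP6V1H (-0.50 ± 0.11).

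Other metabolic lists were lower in MV4-11 under AC220 in most of their members. Of 22 glycolysis genes 17 were lower and 2 higher, against 10 and 7 under DMSO. Of all genes 39.5% were lower and 36.7% higher under AC220, and 33.4% and 32.1% under DMSO. LDHA, which makes lactate, measured 193, 217 and 199 CPM in MV4-11 AC220, 587, 592 and 588 in OCI-AML3 AC220, 638, 632 and 666 in MV4-11 DMSO and 580.2, 545 and 596 in OCI-AML3 DMSO, so that MV4-11 was the higher line by 0.17 ± 0.06 without inhibitor and the lower with it (-1.54 ± 0.06). GPI and ALDOA were the 2 higher genes (0.65 ± 0.07 and 0.67 ± 0.06). Of 19 purine and pyrimidine genes 16 were lower and none higher, against 7 and 3 under DMSO. Of 23 cholesterol and fatty acid genes 14 were lower and 5 higher, against 7 and 12. FADS1, a fatty acid desaturase, was lower, at -3.47 ± 0.08 against -1.94 ± 0.07, and FDFT1, which makes squalene, was higher by 1.15 ± 0.06 and 1.07 ± 0.06, with no called change. Of 25 cytosolic ribosomal protein genes 18 were higher and none lower under AC220, with a median of 0.31. With limma on the authors' deposited normalised values, an alternative that changes the scaling, the genes tested and the test together, 11 were higher and 5 lower, with a median of 0.05, and the cause was not tested. With total counts 16 were higher and 1 lower, with a median of 0.23, and with median-ratio size factors 18 and none, with a median of 0.33.

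**Figure D4:**
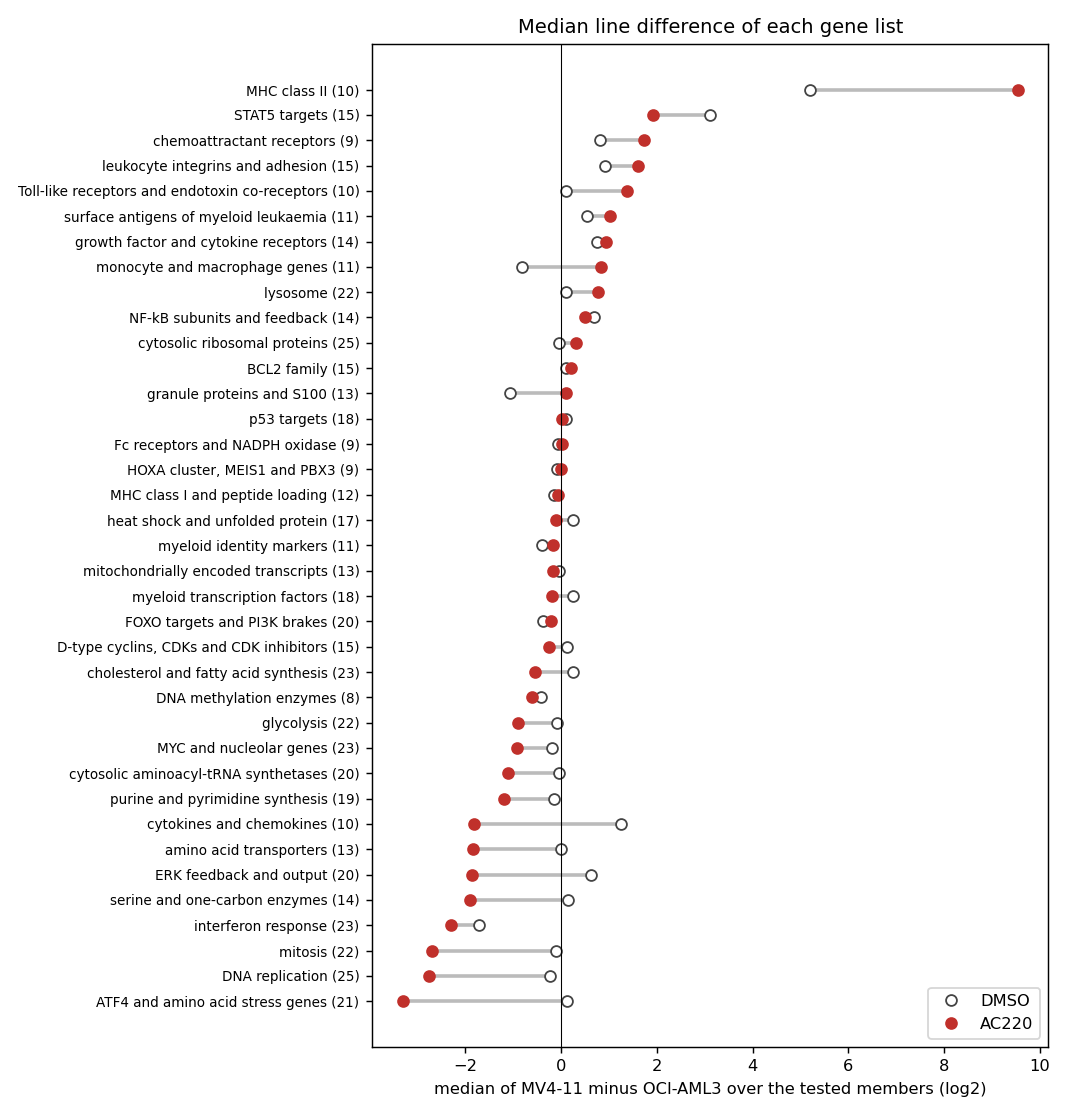
Each pair of points gives the median log2 difference between MV4-11 and OCI-AML3 of 1 gene list, under AC220 and under DMSO, for 37 lists. The ATF4 list lies at 0.13 under DMSO and -3.30 under AC220, and the mitosis list at -0.10 and -2.70, while the interferon list is low in both (-1.71 and -2.31).

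Several STAT5 targets stayed higher in MV4-11 under AC220 but by less than under DMSO. Of 15 tested 9 were higher under AC220, all at least 2-fold, and 5 lower, against 9 and 3 under DMSO. Of all genes 36.7% were higher and 39.5% lower under AC220, and 32.1% and 33.4% under DMSO. The median was 1.92 under AC220 and 3.10 under DMSO, and the change was called downward in 9 (23.7% of all genes) and upward in 1, BCL6. PIM1, a kinase that STAT5 induces, measured 75.1, 50.3 and 41.0 CPM in MV4-11 AC220 and 5.5, 8.47 and 8.27 CPM in OCI-AML3 AC220. Under DMSO it measured 182, 225 and 254 CPM in MV4-11 and 2.18, 4.41 and 4.7 CPM in OCI-AML3, and the difference was 5.86 ± 0.38 against 2.89 ± 0.32 with inhibitor (change adjusted p 9.92e-04). CISH and SOCS2, feedback inhibitors of cytokine receptors, differed by 3.78 ± 0.15 and 3.77 ± 0.22 under AC220 and by 4.37 ± 0.15 and 4.45 ± 0.25 under DMSO. The change was called for CISH (adjusted p 0.026) and not for SOCS2 (adjusted p 0.0885), and the call for CISH was lost without 1 of 4 OCI-AML3 libraries in turn (replicate 1 or 2 of either condition, adjusted p 0.0648 to 0.104). It was also lost with limma-voom (adjusted p 0.093) and with limma on the deposited values (0.091). For SOCS2 the change was called without MV4-11 AC220 replicate 1 (adjusted p 0.034) or OCI-AML3 DMSO replicate 1 (0.0445).

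Other genes with a narrower difference under inhibitor were IGFBP2 and INHBA. IGFBP2, which binds insulin-like growth factors, measured 55.1, 70.6 and 57.0 CPM in MV4-11 AC220 and 471, 471 and 427 CPM in MV4-11 DMSO, with means of 0.362 and 0.151 CPM in OCI-AML3. Its difference went from 11.48 ± 0.54 under DMSO to 7.38 ± 0.36 under AC220. INHBA, the activin A subunit, went from 9.15 ± 0.30 to 7.57 ± 0.27, and the proteoglycan CSPG4 from 6.24 ± 0.36 to 4.52 ± 0.28. The change of CCND2 had an adjusted p of 0.0164, and of 0.065 without OCI-AML3 DMSO replicate 2 and 0.19 without OCI-AML3 AC220 replicate 3. In the opposite direction the receptor kinase gene RET and CDC42EP1, which had no count in MV4-11 DMSO, were lower in MV4-11 in both conditions, at means of 0.0874 and 0.143 CPM in MV4-11 AC220 and 17.8 and 16.4 CPM in OCI-AML3 AC220. The change of RET rests on 3 counts in MV4-11 AC220 and none in MV4-11 DMSO, and its adjusted p of 0.0492 passed the threshold by little. It was not called with total counts, without the count filter, with DESeq2, limma-voom, the deposited values or the replicate block, nor without any 1 library other than MV4-11 AC220 replicate 3 (adjusted p 0.0524 to 0.219). DZIP1 was lower, at -5.85 ± 0.30 under AC220 and -8.14 ± 0.52 under DMSO.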

How the data were processed

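RNA was measured by QuantSeq 3' mRNA sequencing, per the labels' protocols, which counts transcript ends, so that a count does not scale with gene length and transcripts with other ends may escape. Per the submitters' processing notes the tools included HISAT2 2.0.4, featureCounts, Subread 2.0.0, limma 3.42.2 in R 3.6.1 and cutadapt 1.9.1, with genome build hg19. Annotation and strand setting are not given in the sources used here, so overlapping and near-identical genes can share or lose reads. The authors deposited whole-number counts per gene symbol for 12 libraries (19505 rows). A nameless row (0.00343% to 0.00503% of the total of each library) was dropped, and 13 symbols turned into dates were tested but not named. The authors also deposited normalised log2 values of 11075 genes, used here only as an alternative.

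Genes were filtered with filterByExpr and scaled by TMM, and all 12 libraries were fitted together in edgeR 4.0.16 (R 4.3.3, robust quasi-likelihood F test, 8 residual degrees of freedom, common biological coefficient of variation 8.28%), with Benjamini-Hochberg adjustment over 12392 genes and a threshold of 0.05. Contrasts were MV4-11 minus OCI-AML3 under AC220, the same under DMSO, and the difference of both. The AC220 and DMSO line differences share no library, while the responses within a line share libraries with both. Ratios with 1 to 3 counts carry 95% counting intervals, and bounds use 3 counts over a group. Both cover counting error only, since the labels mention no molecular identifiers and PCR copies are not independent molecules. No 2 libraries held identical values. The procedure was tested on simulated counts in which 200 genes were changed in MV4-11 AC220, drawn from genes averaging at least 20 counts. Every other gene had the same mean in all 4 groups, whereas here 76.2% of genes were called between the lines under AC220. The false share and the recovery thus describe the simulated setting only. Neither was measured at the share of differing genes seen here or for genes with fewer counts. Of the simulated line differences called under AC220, 8.11% were false, above the threshold of 0.05. Line differences of log2 0.5, 1 and 2 were recovered in 68%, 92% and 100% of genes. The change was recovered in 37.3%, 81.3% and 98%, so that small changes were often missed.

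The 44 gene lists (750 entries, 682 genes, of which 578 were tested, 93 were below the filter and 11 had no row and were not analysed here) and the comparison itself were chosen with earlier results of these data known. Named genes are 33 key genes, the 10 largest differences in each direction, 5 per direction in each class, up to 4 members per list with the smallest adjusted p, and members against their list where at most 3 were. The largest and class genes needed an adjusted p below 0.05, at least 20 counts on average in the higher line and no overlap of libraries under AC220, with Y-linked genes, pseudogenes, antisense and small RNAs and clone names left aside. Genes named outside this rule (among them DUSP5, PHLDA1, VEGFA, CCL2, CSF1 and the genes with printed promoters) were chosen after their values were seen. Some genes that the rule names are not reported here.

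Promoters came from RefSeq (GRCh38.p14) and were matched by symbol. Motif shares are given only for lists with a sequence for at least 80% of members. Alternatives were median-ratio size factors, total counts, no or a stricter count filter, DESeq2 1.42.0, limma-voom (limma 3.58.1), limma on the deposited log2 values, a replicate block, the 6 AC220 libraries alone, a threshold of 0.01 and leaving out each library.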

Additional observations from a re-analysis of the deposited data

Results flagged for a closer look

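The line difference under AC220 and that under DMSO were compared by a test of the difference itself, and it was called for 5792 genes. Among reversed genes, the following were named for the size of the change between the conditions (log2, AC220 minus DMSO). Toward a higher level in MV4-11 under AC220 the change was 3.75 for ZNF467, 3.49 for CFP, 3.28 for SCUBE1 and 3.21 for ICAM3. Toward a lower level it was -6.35 for RGS16, -5.56 for GDF15, -5.40 for TRIB3, -5.11 for PHGDH and -4.94 for TNF. Opposite signs in the conditions and a called change define the reversed class, so that both hold for these genes by selection. Several of them rest on low counts in MV4-11 AC220. GDF15 had a mean of 0.123 CPM and ZNF467 of 2.72 CPM there, and RGS16 and TNF lay below ZNF467.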

How the results depend on the processing

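Counts of genes kept within 1.5 times their value in 300 of 301 comparisons with an alternative. The exception was the class with a larger difference under DMSO, 125 genes at a threshold of 0.01 instead of 219. Leaving out 1 library at a time gave 4356 to 4773 genes higher in MV4-11 under AC220 and 4603 to 4936 lower, 3678 to 4211 higher and 3716 to 4293 lower under DMSO, and 2518 to 2997 upward and 2712 to 3133 downward changes. No gene called at least 2-fold apart under AC220, here and under an alternative, turned direction. MT-ND2 was the named gene that reversed, with limma on the deposited normalised values, in its line difference (-0.0029 instead of 0.41) and its change (-0.13 instead of 0.24), and the cause was not tested. Each named gene was compared with each alternative. For the line difference 16 of these comparisons lost the call, 7 gained it and 5353 kept the same call. For the change 128 lost the call, 70 gained it and 4926 kept the same call. A gene can enter these numbers more than once, as MYC and RET did. With total counts the median difference of all genes shifted by -0.0758.

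With the replicate number as a block 4517 genes were higher and 4829 lower under AC220, and 2757 changes were upward and 2869 downward. Whether the numbers pair the libraries was not settled. Of 18 correlations between deviations of same-numbered libraries 3 were over 0.1, with a range of -0.25 to 0.242. Between OCI-AML3 AC220 and OCI-AML3 DMSO they were 0.116, 0.0574 and 0.242 for replicates 1 to 3. Between MV4-11 AC220 and MV4-11 DMSO they were -0.166, -0.0785 and -0.109. Libraries with different numbers were not compared in this way. Differences in genes near 3 counts were not resolvable at this depth.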

Other observations

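Of 15 BCL2 family genes tested 6 were higher and 5 lower in MV4-11 under AC220, near the shares of all genes (36.7% and 39.5%), so that the counts set this list apart in no direction. BMF, a BH3-only activator of cell death, measured 60.5, 57.8 and 51.9 CPM in MV4-11 AC220, 2.35, 3.33 and 3.23 in OCI-AML3 AC220, 13.2, 10.8 and 14.5 in MV4-11 DMSO and 3.19, 1.82 and 3.11 in OCI-AML3 DMSO, with a line difference of 4.23 ± 0.18 against 2.24 ± 0.19 under DMSO (adjusted p of the change 2.97e-07). BIK, another BH3-only gene, differed by 3.86 ± 0.23 against 2.76 ± 0.21. MCL1, which protects from cell death, was lower in MV4-11, at -1.06 ± 0.08 against -0.61 ± 0.08, and BCL2 was not called in either condition (-0.15 ± 0.08 and 0.09 ± 0.07). Of 18 p53 targets 6 were higher and 8 lower under AC220, again near those shares, among them the death receptor TNFRSF10B (1.27 ± 0.08) and the nuclease AEN (-1.14 ± 0.10). Among 14 NF-kB genes 8 were higher and 4 lower under AC220 (36.7% and 39.5% of all genes), with RELB at 1.61 ± 0.14 and the inhibitor NFKBIE at -1.35 ± 0.14. Under DMSO 8 were higher and 4 lower as well (32.1% and 33.4% of all genes).

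Among other groups, 7 of 10 tested Toll-like receptors and co-receptors were higher in MV4-11 under AC220, where 36.7% of all genes were, and 2 lower (TLR4, -0.92 ± 0.21, and CD14), against 3 and 3 under DMSO (32.1% and 33.4% of all genes). PIK3R1, the regulatory subunit of PI3K, was higher by 1.36 ± 0.08 against 0.26 ± 0.08, while the insulin receptor substrate IRS2 was lower, at -4.75 ± 0.15. Of 8 DNA methylation enzymes 5 were lower under AC220 and 5 under DMSO (39.5% and 33.4% of all genes), with DNMT3A at -3.29 ± 0.19 against -2.39 ± 0.15. The B-lymphoid genes differed by line: IGLL1 measured 20.4, 20.9 and 18.2 CPM in MV4-11 AC220 and had no count in OCI-AML3 AC220, and EBF1 measured 2.8, 2.85 and 3.09 CPM in OCI-AML3 AC220 and a mean of 0.031 CPM in MV4-11 AC220. KRT8, a keratin of simple epithelia, measured 11.9, 17.4 and 18.4 CPM in MV4-11 AC220 and a mean of 0.108 CPM in OCI-AML3 AC220, whereas VIM, an intermediate filament of mesenchymal and blood cells, measured 79.4, 46.5 and 43.8 and 432, 544 and 610.1 CPM.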
